A study of Mus musculus with 18 samples.

Results

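Teneurins and latrophilins are the 4 genes Tenm1 to Tenm4 and the 3 genes Adgrl1 to Adgrl3, 7 of the 32015 gene symbols measured in 2 mouse tumour cell lines after CRISPR targeting of Ncor1. The genes were taken by symbol, and the family was chosen by a measured value, the 0 counts of Tenm3 in every B16 library with an Ncor1 guide. The Tenm3 values in B16 are therefore a description and carry no test. All 7 symbols were found in the tables of both lines. RNA was sequenced from the melanoma line B16 and the liver cancer line Hepa1-6, and the question behind the comparison was what changes when NCOR1, a nuclear receptor corepressor, is lost. Each line had cells with the guide sgNcor1-1, cells with the guide sgNcor1-2 and cells with the control guide sgCtrl, with 3 libraries in each of the 6 groups. The labels give the genotype of the first 2 groups of a line as Ncor1 knockout and that of sgCtrl as WT. The sources used here do not say whether a guide's cells were 1 clone or a pool.

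Teneurins are large single-pass transmembrane proteins that neurons and other cells use to recognise each other. Latrophilins are adhesion receptors of the G protein-coupled class that bind teneurins and FLRT proteins on the facing cell, and these contacts are best known for guiding axons and building synapses. In neurons Tenm3 helps to match partners in the visual system and hippocampus, and Tenm4 is known for its part in myelination by oligodendrocytes.

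Start-site windows are shown for the member that was at 0 counts in B16 knockout libraries (Tenm3), for the other member whose RNA lay highest there against controls (Adgrl3) and for the member with almost no counts in either line (Tenm1). Capitals mark CG dinucleotides, whose density separates CpG-rich from CpG-poor start regions. Each window runs from 250 bases before to 50 bases after an annotated start, read 5′ to 3′ on the gene's strand, from RefSeq on GRCm38.p6. The Tenm3 window is chr8:48674641-48674940 (minus strand), the Adgrl3 window is chr5:81020321-81020620 (plus strand) and the Tenm1 window is chrX:43274735-43275034 (minus strand). All 3 windows lie inside the annotated gene spans, which begin further upstream.
Tenm3: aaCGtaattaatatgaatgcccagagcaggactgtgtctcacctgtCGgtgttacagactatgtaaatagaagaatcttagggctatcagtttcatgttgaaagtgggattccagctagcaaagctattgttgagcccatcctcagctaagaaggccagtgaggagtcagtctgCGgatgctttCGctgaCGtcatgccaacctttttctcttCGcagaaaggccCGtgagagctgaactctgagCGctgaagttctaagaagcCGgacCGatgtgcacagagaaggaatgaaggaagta
Adgrl3: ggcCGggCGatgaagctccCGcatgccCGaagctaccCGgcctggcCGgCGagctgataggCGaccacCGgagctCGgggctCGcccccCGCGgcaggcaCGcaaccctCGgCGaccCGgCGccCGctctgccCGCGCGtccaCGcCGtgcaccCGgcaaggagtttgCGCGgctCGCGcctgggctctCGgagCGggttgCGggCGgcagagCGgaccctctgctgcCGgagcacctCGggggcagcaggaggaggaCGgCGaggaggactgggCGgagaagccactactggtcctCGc
Tenm1: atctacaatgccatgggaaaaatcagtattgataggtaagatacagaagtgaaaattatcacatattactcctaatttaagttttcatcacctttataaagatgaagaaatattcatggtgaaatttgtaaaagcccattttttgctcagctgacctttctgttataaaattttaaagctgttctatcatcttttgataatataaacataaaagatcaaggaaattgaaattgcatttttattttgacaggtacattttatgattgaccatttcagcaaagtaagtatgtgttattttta
The Tenm3 window held 10 CG dinucleotides, the Adgrl3 window 40 and the Tenm1 window 0, against a median of 7 over all 32851 windows. The other Adgrl3 windows held 21 and 20, the Adgrl1 window 28, the Tenm4 windows 6 and 12, the Adgrl2 window 4 and the Tenm2 window 2. The nuclear receptor half-site AGGTCA, searched on both strands, was present in 16.3% of all windows. Among the members it was found in the Tenm1 window alone, and a match or its lack in these letters is only a description.

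Sequencing gave 15663964 to 25263744 counts per library in B16 and 17689324 to 30819681 in Hepa1-6. Levels are in CPM, the counts of a gene scaled to a common library total, with TMM factors for library composition. In B16 the library sgNcor1-1 1 stood apart on the first principal component (-96.5) with a TMM factor of 0.792, and in Hepa1-6 the libraries numbered 1 stood apart. Ncor1 RNA was at 236.4 to 366.9 CPM in B16 knockout libraries, against 279 to 326.3 CPM in B16 sgCtrl. In Hepa1-6 it was at 130.4 to 196.8 CPM in knockout libraries, against 221.4 to 266.2 CPM in sgCtrl (log2 fold change -0.62, SE 0.17, adjusted p = 0.223, edgeR quasi-likelihood test with Benjamini-Hochberg adjustment). The 8 melanoma markers summed to at least 4889 CPM in every B16 library and at most 3.95 CPM in Hepa1-6. The 8 liver markers summed to 88.7 to 149.4 CPM in B16, with Alb and Afp at 0, and to 992.7 to 1561 CPM in Hepa1-6, where Ttr and Apoa1, which mark mature hepatocytes, stayed at or under 0.51 CPM. The 3 fibroblast markers summed to 10.4 to 28.3 CPM in B16. In Hepa1-6 they summed to 706 to 1591 CPM in knockout libraries, against 1171 to 1410 CPM in sgCtrl. Nearly all of this was Dcn, with Lum at 0. The 4 neuron and glia markers summed to 143.8 to 460 CPM in B16 knockout libraries and 128.1 to 247.1 CPM in B16 sgCtrl. In Hepa1-6 they summed to at most 1.112 CPM, and Snap25 was at 0 in both lines. The part of fibroblast, neuron and glia markers in the results was not tested. Separate cultures are not named in the labels, and the p-values given here then reflect library-to-library variation that may be technical.

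Tenm3 RNA was detected in every B16 control library and in none of the B16 knockout libraries. Tenm3 lies on chromosome 8 from 48225665 to 49522824 on GRCm38.p6 and spans 1297.2 kb. With sgNcor1-1 and with sgNcor1-2 all 3 libraries had 0 counts, against 251, 115 and 280 counts in sgCtrl libraries 1, 2 and 3. The control levels were 12.4, 6.93 and 12.6 CPM (10.6 ± 3.21, SD, n = 3). Over the 6 knockout libraries a count of 0 allows up to 3 counts, or 0.0274 CPM, so Tenm3 was at least 389-fold lower with the Ncor1 guides than in the control mean. Limits of this kind cover counting error only. In bulk RNA, fewer cells that make a transcript and less transcript per cell cannot be told apart. Of 11636 genes with at least 1 CPM in the B16 control mean, 2 had 0 counts in all 6 knockout libraries. The other was Nxf3, of the nuclear RNA export factor family, chosen after its values were seen.

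The expressed neighbours of Tenm3 overlapped between knockout and control libraries in B16. Of the 5 nearest genes with a table entry on each side, 8 had 0 counts in B16 and 2 were expressed. Wwc2, a scaffold protein of Hippo signalling that lies 235.1 kb away, had 81.2, 143 and 153 CPM with sgNcor1-1, 149, 152 and 159 CPM with sgNcor1-2, and 150.2, 147 and 150.3 CPM in sgCtrl libraries 1, 2 and 3. All but sgNcor1-1 1 lay close together (log2 fold change -0.10, SE 0.20, adjusted p = 1, edgeR). Dctd, the deoxycytidylate deaminase gene 84.0 kb away, had 2.42, 14.1 and 7.52 CPM with sgNcor1-1, 2.71, 20.5 and 7.47 CPM with sgNcor1-2, and 2.86, 15.9 and 7.78 CPM in sgCtrl. Its levels followed the library number in all 3 groups (log2 fold change 0.04, SE 0.73, adjusted p = 1, edgeR). Both expressed neighbours lie on the same side of Tenm3. DNA was not measured, so a loss of Tenm3 sequence was not tested.

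**Figure D1:**
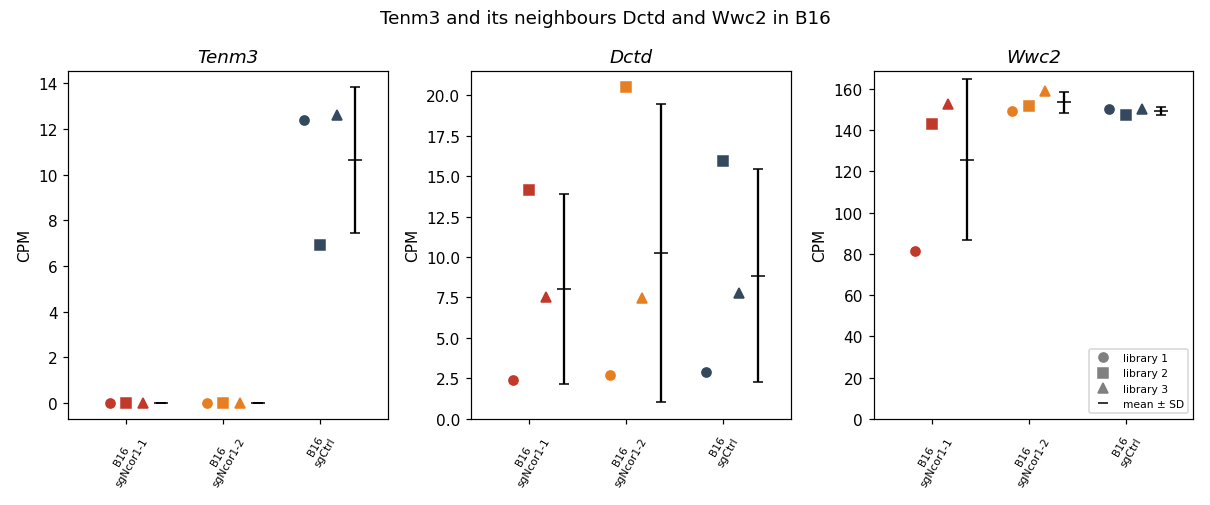
CPM of Tenm3 and of its expressed neighbours Dctd and Wwc2 in each B16 library, by guide, with the mean and SD of 3 libraries beside the points. Tenm3 is at 0 in all 6 knockout libraries, while Dctd and Wwc2 overlap between knockout and sgCtrl libraries.

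Tenm3 RNA was detected in every Hepa1-6 library, knockout and control. Libraries with sgNcor1-1 had 1.48, 1.48 and 1.63 CPM, and those with sgNcor1-2 had 1.82, 1.15 and 2.49 CPM, against 0.923, 1.55 and 0.745 CPM in sgCtrl. Knockout and control libraries overlapped, and the log2 fold change of 0.64 (SE 0.39) did not pass the test (adjusted p = 0.583, edgeR). The values rest on 26 to 58 counts per knockout library and 15 to 31 counts per control library.

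The 5 genes whose log2 CPM pattern over the 9 B16 libraries was most like that of Tenm3 were Pbxip1 (Pearson r = 0.983), Hacd4 (0.957), Tvp23a (0.955), Ppm1h (0.949) and Plppr3 (0.949), among 11223 genes. These libraries share the knockout and control groups, so the likeness is a description and largely repeats the group difference. Pbxip1, whose product binds PBX transcription factors, was at 0.395 CPM on average with sgNcor1-1 and with sgNcor1-2, against 35.4 CPM in sgCtrl. Tvp23a was at 0.280 and 0.354 CPM with sgNcor1-1 and sgNcor1-2, against 4.43 CPM in sgCtrl. In Hepa1-6 Pbxip1 ranged from 12.8 to 30.1 CPM in knockout libraries, against 18.3 to 29.6 CPM in sgCtrl.

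Tenm4 had the highest mean of the teneurins per kilobase of exon in all 6 groups, and its levels followed the library number. In B16 it had 2.50, 56.8 and 18.4 CPM with sgNcor1-1, 18.6, 44.1 and 22.0 CPM with sgNcor1-2, and 12.1, 46.6 and 18.7 CPM in sgCtrl. Library 1 was lowest and library 2 highest in all 3 groups. Knockout against sgCtrl gave 0.07 on the log2 scale (SE 0.76, adjusted p = 1, edgeR). In Hepa1-6 it had 5.29, 32.5 and 67.3 CPM with sgNcor1-1, 4.90, 39.1 and 53.7 CPM with sgNcor1-2, and 16.7, 42.4 and 43.2 CPM in sgCtrl. There library 1 was lowest and library 3 highest in all 3 groups, and knockout against sgCtrl gave -0.01 (SE 0.79, adjusted p = 0.996, edgeR). The labels do not say what the library number stands for. Intervals of 2 SE on each side ran between -1.45 and 1.59 in B16 and between -1.59 and 1.56 in Hepa1-6. These fits have no term for the library number, so the intervals include the variation between numbers.

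**Figure D2:**
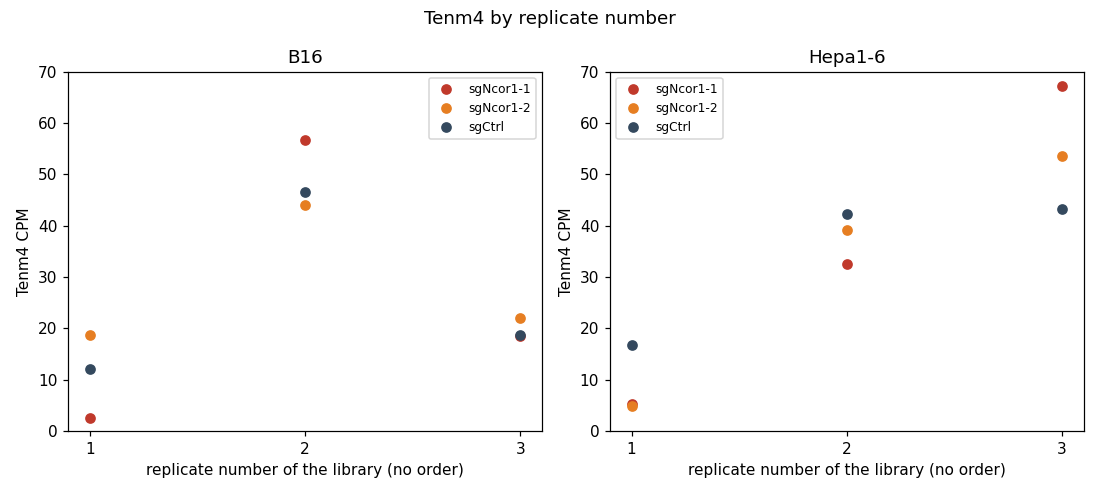
CPM of Tenm4 against the replicate number of the library in B16 and Hepa1-6, 1 point per library, coloured by guide; the numbers have no order. In both lines the libraries numbered 1 are lowest in each group, and the highest are those numbered 2 in B16 and 3 in Hepa1-6.

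Tenm1 and Tenm2 were near the detection limit. Tenm1 had 0 counts in 17 of the 18 libraries and 2 counts in Hepa1-6 sgCtrl 3. Tenm2 summed to 2 counts over B16 sgNcor1-1, 10 over sgNcor1-2 and 8 over sgCtrl, and to 5, 1 and 9 counts over the same groups of Hepa1-6. Neither passed the filter on low counts. In each line 5 of the 7 members passed it, but in B16 Tenm3 did so through its control libraries alone and Adgrl3 through its knockout libraries alone.

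Adgrl3, the latrophilin that binds FLRT3 and teneurins at synapses, lay higher in every B16 knockout library than in every control, at low levels and without passing the test over all genes. Groups that do not overlap, in either direction, were found for 2.18% of the genes tested in B16. It had 0.645, 1.14 and 1.07 CPM with sgNcor1-1 and 1.17, 1.69 and 1.85 CPM with sgNcor1-2, against 0.247, 0.482 and 0.495 CPM in sgCtrl. These levels rest on 8, 19 and 20 counts with sgNcor1-1, on 29.3, 31 and 35 counts with sgNcor1-2, and on 5, 8 and 11 counts in sgCtrl. The filter on low counts required 0.576 CPM in B16, which 5 of the 6 knockout libraries and 0 of the 3 control libraries reached before TMM scaling. Adgrl3 was therefore tested only through the group in which it was higher, and its values and p below carry that limit. On the log2 scale it stood at 1.58 (SE 0.47, 2.98-fold, unadjusted p = 0.008, adjusted p = 1, edgeR). Within a library number the log2 ratio to the control lay between 0.98 and 1.88. It was positive in 6 of 6 pairs, which follows from the groups not overlapping and adds no support. Both guides were set against the same control libraries, so these pairs are not independent. With the number as a block the adjusted p was 0.158. The mean was higher with sgNcor1-2, but the difference of -0.71 (SE 0.49) between sgNcor1-1 and sgNcor1-2 did not pass (adjusted p = 1, edgeR).

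Adgrl2, a latrophilin that marks postsynaptic sites in the hippocampus, was the member with the most RNA per kilobase in B16 and lay lower there in every knockout library. It had 64.7, 87.1 and 94.1 CPM with sgNcor1-1 and 91.1, 88.0 and 94.7 CPM with sgNcor1-2, against 103, 109 and 137 CPM in sgCtrl. The groups did not overlap, which was so for 2.18% of the genes tested in B16. Adgrl2 stood at -0.43 on the log2 scale (SE 0.17, unadjusted p = 0.028), with an adjusted p of 1 in edgeR and 0.313 with the number as a block. Over the 9 B16 libraries its pattern was most like those of Map4k1 (Pearson r = 0.955), Tcaf1 (0.940) and Slc4a11 (0.937). Each of these genes was also lower on average with either guide than in sgCtrl. The likeness is a description and in part repeats that group difference.

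Adgrl1, the latrophilin first found as a receptor of the spider toxin latrotoxin, had 44.2, 96.8 and 87.5 CPM with sgNcor1-1 and 58.3, 78.2 and 88.5 CPM with sgNcor1-2 in B16, against 54.4, 77.7 and 69.2 CPM in sgCtrl. The groups overlapped and library 1 was lowest in each of them (log2 fold change 0.17, SE 0.26, adjusted p = 1, edgeR). In Hepa1-6, where Adgrl1 was the member with the most RNA, its pattern over 9 libraries was most like those of Prr12 (Pearson r = 0.978) and Ldb1 (0.974).

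In Hepa1-6 the latrophilins showed no change that the test could detect. Adgrl1 had 45.4, 42.2 and 71.0 CPM with sgNcor1-1 and 44.1, 42.8 and 58.3 CPM with sgNcor1-2, against 40.3, 64.8 and 52.3 CPM in sgCtrl (log2 fold change -0.05, SE 0.23). Adgrl2 had 16.0, 3.08 and 6.45 CPM with sgNcor1-1 and 15.2, 3.71 and 7.68 CPM with sgNcor1-2, against 11.0, 8.16 and 7.06 CPM in sgCtrl (log2 fold change -0.01, SE 0.54). Adgrl3 had 0.876, 0.457 and 0.583 CPM with sgNcor1-1 and 0.786, 0.865 and 0.797 CPM with sgNcor1-2, against 0.666, 0.701 and 0.944 CPM in sgCtrl (log2 fold change -0.09, SE 0.38). Knockout and control overlapped for all 3 genes, and Adgrl2 was highest in library 1 of every group. Their adjusted p-values lay between 0.961 and 0.997 (edgeR).

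**Figure D3:**
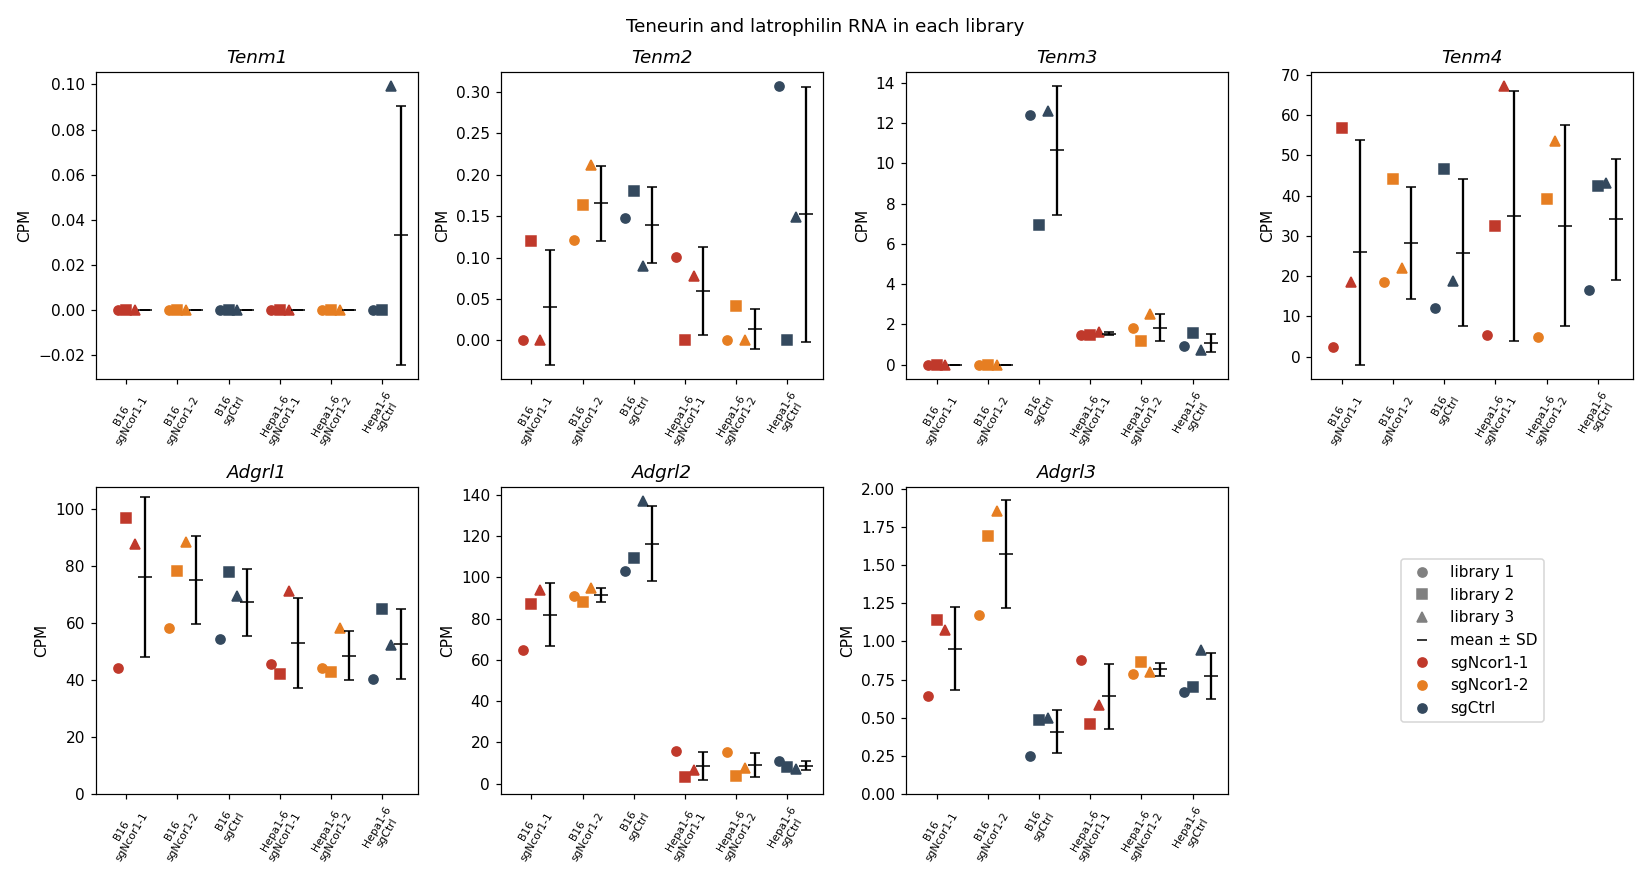
CPM of the 7 members in each library, by line and guide, with the mean and SD of 3 libraries beside the points and a scale of its own for each gene. Tenm3 is at 0 in the B16 knockout libraries, Adgrl3 is higher and Adgrl2 lower there than in every B16 sgCtrl library, and Tenm1 and Tenm2 are near 0 throughout. Knockout and control libraries did not overlap for 2.18% of the genes tested in B16, in either direction.

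Of the members with a test, none was called in either knockout comparison at an adjusted p under 0.05. In B16 this was 0 of 4 by edgeR, where 0.0324% of the 12347 genes tested were called, and 0 by DESeq2. Adgrl2 had an unadjusted p under 0.05, as did 2.36% of all genes. Adgrl3 did too, but it passed the filter on low counts through knockout libraries alone, so its p is not read as support. With the number as a block edgeR called 48 genes in B16, among them 0 of these 4 members. In Hepa1-6 it was 0 of 5 (edgeR; 0 at an unadjusted p under 0.05, and 0 by DESeq2), where 0.201% of the 12458 genes tested were called. The median log2 fold change in B16 was 0.12 over the 4 members without Tenm3, 0.07 over 5 with Tenm3 at its bound, and 0.01 over all genes. In Hepa1-6 it was -0.01 over the 5 members and 0.02 over all genes. In a joint fit of all 18 libraries the knockout effect in B16 minus that in Hepa1-6 was 1.66 for Adgrl3 (SE 0.59, unadjusted p = 0.0119, adjusted p = 0.565, edgeR). It was -0.43 for Adgrl2 (SE 0.58), 0.23 for Adgrl1 (SE 0.37) and 0.09 for Tenm4 (SE 1.16). None of these 4 passed in edgeR, where 0.178% of all genes were called, and 0 passed in DESeq2. With the number as a block edgeR called 236 genes. The 1 member with an unadjusted p under 0.05, beside 6.91% of all genes, was Adgrl3. In B16 Adgrl3 reached the filter level in knockout libraries alone, so this p is not read as support either.

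**Figure D4:**
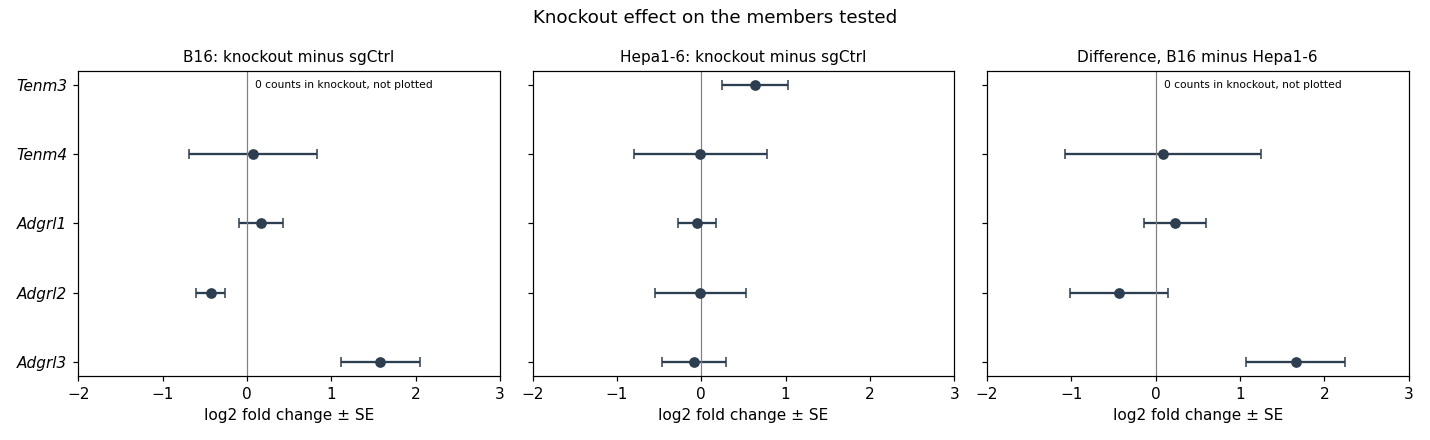
Log2 fold change of knockout against sgCtrl in B16, the same in Hepa1-6, and the difference of B16 minus Hepa1-6, each with its SE, from edgeR. Adgrl3 lies at 1.58 in B16 and at -0.09 in Hepa1-6, and Tenm3 is not plotted where all B16 knockout libraries had 0 counts.

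The lines differed in which latrophilin they expressed most. Per kilobase of exon, B16 sgCtrl had 18.1 CPM of Adgrl2, 7.86 of Adgrl1, 1.84 of Tenm4, 1.12 of Tenm3 and 0.0533 of Adgrl3. Hepa1-6 sgCtrl had 6.14 CPM per kilobase of Adgrl1, 2.43 of Tenm4, 1.36 of Adgrl2, 0.113 of Tenm3 and 0.101 of Adgrl3. In B16 sgCtrl the libraries of Tenm4 and Tenm3 overlapped on this scale, and in Hepa1-6 sgCtrl those of Tenm4 and Adgrl2 and those of Tenm3 and Adgrl3 did. Summed over the family, latrophilins held 15.3 to 29.4 CPM per kilobase in B16 libraries and 5.48 to 9.39 in Hepa1-6. Teneurins held 0.178 to 4.06 in B16 libraries and 0.540 to 4.97 in Hepa1-6. Adgrl2 was higher in B16 sgCtrl than in Hepa1-6 sgCtrl, by 3.70 on the log2 scale (SE 0.52, adjusted p = 1.50e-05, edgeR), and was the 1 of 4 members with a test that was called. Of all genes, 59.4% were called between the lines (29.8% higher and 29.6% lower in B16), so 1 of 4 is not above that share. Tenm4 at -0.44 (SE 0.95), Adgrl1 at 0.32 (SE 0.30) and Adgrl3 at -0.94 (SE 0.49) did not pass. The line and any difference in how the lines were handled cannot be told apart.

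The partner list of 19 genes held Adgrl4, which shares the latrophilin symbol, and otherwise proteins that bind teneurins, latrophilins or their ligands. None of its members was called in B16, where 10 were tested (edgeR; 0 at an unadjusted p under 0.05, 0 by DESeq2 and 0 with the number as a block). Their median log2 fold change was 0, against 0.01 over all genes. Flrt3, a latrophilin ligand, had a log2 fold change of -1.17 (SE 0.63), Unc5c, a netrin receptor that also binds FLRT proteins, -0.42 (SE 0.26), and the synaptic scaffold gene Shank3 2.48 (SE 1.11).

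In Hepa1-6 none of the 11 partners tested was called by edgeR (2 at an unadjusted p under 0.05, beside 11.1% of all genes). DESeq2 called Flrt3, beside 2.76% of all genes. With the number as a block, though the Hepa1-6 numbers were not taken to pair libraries, edgeR also called Flrt3 (-1.87, adjusted p = 0.00333), beside 4.21% of all genes. Flrt3 had 6.64, 6.11 and 3.11 CPM with sgNcor1-1 and 6.07, 4.00 and 3.14 CPM with sgNcor1-2, against 34.0, 13.6 and 9.84 CPM in sgCtrl. Every knockout library lay below every control, as for 9.12% of the genes tested in Hepa1-6 in either direction. The fitted log2 value of Flrt3 was -1.99 (SE 0.41), with an adjusted p of 0.136 in edgeR and 0.00108 in DESeq2. Flrt1, its paralogue, stood at 1.98 (SE 0.82, adjusted p = 0.424, edgeR) on at most 0.855 CPM, and passed the filter through knockout libraries alone, as Shank3 did in B16. Shank1 stood at -1.27 (SE 0.65) and Flrt2 at -1.36 (SE 0.90). The difference of the Flrt3 effect between the lines was 0.82 (SE 0.81, adjusted p = 0.955, edgeR).

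Between the lines 10 of 13 partners with a test were called, beside 59.4% of all genes, 5 higher and 5 lower in B16 sgCtrl. Unc5c was at 84.6 ± 2.99 CPM in B16 sgCtrl (SD, n = 3), against 2 counts in all in Hepa1-6 sgCtrl. Its paralogue Unc5b was at 17.4 ± 1.24 CPM in B16 sgCtrl and 217.3 ± 21.5 CPM in Hepa1-6 sgCtrl (log2 fold change -3.68, SE 0.22, adjusted p = 7.76e-10, edgeR). Nrxn2, a neurexin, was at 14.5 ± 4.22 CPM in B16 sgCtrl and 0.252 ± 0.0492 CPM in Hepa1-6 sgCtrl (log2 fold change 5.79, SE 0.59, adjusted p = 3.49e-07, edgeR). Dag1 (dystroglycan) and Shank1 were also higher in B16 sgCtrl, by 1.47 and 2.28 on the log2 scale. Flrt3 at -2.12, Shank2 at -2.05, Fgfr1 at -1.10 and Mbd1 at -0.68 were lower in B16 sgCtrl. No Hepa1-6 sgCtrl library of Unc5c or Nrxn2 reached the 0.491 CPM that the filter required within Hepa1-6. The calls of Unc5c and Nrxn2 between the lines are therefore not read as support.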

How the data were processed

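Polyadenylated RNA of 18 libraries was sequenced. Per the submitters' processing notes, the tools were FastQC 0.12.1, Trim Galore 0.6.7, Bowtie2 2.2.5 and RSEM 1.2.8 with build mm10. A gene annotation was not given in the sources used here. Expected counts per gene from RSEM were deposited by the authors, 1 table per line, of which 7.19% (B16) and 7.87% (Hepa1-6) were not whole. They were rounded to whole numbers. Column names KO1 and KO2 were read as sgNcor1-1 and sgNcor1-2. The labels do not say that the kit marks strand, so overlapping and antisense genes cannot be told apart. Reads that match several genes are split among them by RSEM.

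Tests used edgeR 4.0.16 (quasi-likelihood, TMM, filterByExpr, robust, 1 mean per group) in R 4.3.3, with p-values adjusted over all genes tested by the Benjamini-Hochberg method and called under 0.05. Knockout is the mean of both Ncor1 guides. DESeq2 1.42.0, other size factors, no filter, a replicate block and left-out libraries were alternatives. In B16 all 9 correlations of same-number deviations from group means were 0.50 to 0.74, so the numbers appear to pair the libraries. The main fits have no term for the number, and their SE and p-values ignore this pairing. Fits with the number as a block are given as an alternative. On simulated data with 4-fold changes, 75.3% of changed genes were recovered in the B16 comparison and 83.3% in the Hepa1-6 comparison. For 2-fold changes it was 15.2% and 23.2%.

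No pair of libraries was alike enough to be 1 library. Likeness used log2 CPM with a prior count of 2 and genes of at least 1 CPM. Lengths are union exons of GENCODE M21. All members are named, and from each list the called genes and up to 4 with the smallest p per comparison, except a few genes that are not reported here. The members and lists were chosen with earlier results of these data known.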

Additional observations from a re-analysis of the deposited data

How the results depend on the processing

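No member with a test changed its side of the threshold in any comparison. Members called stayed at 0 in B16, 0 in Hepa1-6, 1 between the lines and 0 in the difference, also when each library was left out in turn (0 to 0, 0 to 0, 1 to 1 and 0 to 0). Counts over all genes moved more. In B16, 4 genes were called, against 43 with DESeq2, 17 with no filter on low counts, 48 with the replicate block and 339 with that block and without sgNcor1-1 1. In that last fit Adgrl3 had an adjusted p of 0.0614 and Adgrl2 of 0.0736 (edgeR), both over the threshold. Adgrl3 passed the main B16 filter through knockout libraries alone, so its value is not read as support. In Hepa1-6, 25 were called, against 344 with DESeq2 and 525 with the replicate block. For the difference it was 25, against 103 with DESeq2, 236 with the block and 582 with the block and without B16 sgNcor1-1 1. Leaving out 1 library gave 1 to 3 genes in B16, 6 to 19 in Hepa1-6, 7416 to 7919 between the lines (8342 with all) and 15 to 30 in the difference. The Hepa1-6 numbers were not taken to pair libraries: same-number correlations ran between 0.05 and 0.91, and 11 of 18 best matches had the same number. The Pearson r of Tenm3 and Pbxip1 was 0.977 to 0.994 without 1 library.

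Directions turned only for values smaller than their SE. With the replicate block Tenm4 in B16 was at -0.02, and without the Hepa1-6 libraries numbered 1 Tenm4 in Hepa1-6 was at 0.17 and the differences at -0.08 (Tenm4) and 0.13 (Adgrl2). Without 1 library Tenm4 ran between -0.57 and 0.82 in B16, -0.46 and 0.24 in Hepa1-6 and -0.55 and 0.85 in the difference. In Hepa1-6 Adgrl1 ran between -0.21 and 0.13, Adgrl2 between -0.43 and 0.19 and Adgrl3 between -0.24 and 0.08. The cause was not tested. Depth limits Tenm1, Tenm2 and Adgrl3, which rest on few counts.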

Other observations

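Among 25 other adhesion receptors of the G protein-coupled class, none was called in B16, where 8 were tested (edgeR; 2 at an unadjusted p under 0.05, beside 2.36% of all genes, and 0 by DESeq2). Of the 2, Adgrd1 passed the filter on low counts through knockout libraries alone, so that count is not read as support. In Hepa1-6 none of 12 was called by edgeR (2 at an unadjusted p under 0.05, beside 11.1% of all genes), while DESeq2 called Adgrg1 and Adgrf5, beside 2.76% of all genes. Adgrg1, also known as GPR56, was at 7.58 ± 3.19 CPM with sgNcor1-1 and 6.80 ± 3.13 CPM with sgNcor1-2, against 21.3 ± 6.88 CPM in sgCtrl (SD, n = 3 each; log2 fold change -1.57, SE 0.38, adjusted p = 0.18 in edgeR and 0.0083 in DESeq2). Adgrf5 summed to 8 counts over sgNcor1-1 and 7 over sgNcor1-2, against 147 over sgCtrl. It passed the filter on low counts through the control libraries alone, so its adjusted p (0.136 in edgeR and 0.00407 in DESeq2) is not read as support.

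In B16 Adgrg1 was at 137.9 ± 55.7 CPM with sgNcor1-1 and 125.1 ± 14.6 CPM with sgNcor1-2, against 107.6 ± 13.6 CPM in sgCtrl (SD, n = 3 each). Its knockout effect in B16 minus that in Hepa1-6 was 1.85 (SE 0.46, adjusted p = 0.229 in edgeR and 0.0242 in DESeq2). DESeq2 called 0.733% of all genes for this difference. With the replicate number as a block the value was 1.88 (adjusted p = 6.69e-04, edgeR), beside 1.68% of all genes called. That block uses the Hepa1-6 numbers too, which were not taken to pair libraries. Adgrd1, with 3 counts in all in B16 sgCtrl, had a difference of 4.80 (adjusted p = 0.367, edgeR; no call by DESeq2) and was called with the block alone (4.97, adjusted p = 0.0298). In B16 only knockout libraries of Adgrd1 reached the filter level, so this call is not read as support. Between the control cells 7 of 12 receptors with a test were called by edgeR, beside 59.4% of all genes. Celsr2, Adgrg1 and Adgra3 were higher in B16, and Celsr1, Adgrd1, Adgrf2 and Adgrf5 were lower. Celsr2, of the flamingo family of cadherins, was at 44.0 ± 3.07 CPM in B16 and 0.467 ± 0.272 CPM in Hepa1-6 (log2 fold change 6.51, SE 0.61, adjusted p = 1.32e-07, edgeR). Celsr1 stood at -2.56 (SE 0.76, adjusted p = 0.00839, edgeR) and Adgrd1 at -4.91 (SE 1.23, adjusted p = 0.00258, edgeR). No B16 sgCtrl library of Celsr1, Adgrd1, Adgrf2 or Adgrf5 reached the 0.576 CPM that the filter required within B16. The calls of these genes between the lines are therefore not read as support.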
